A study of Mus musculus with 3 samples.

Results

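Granins are the soluble acidic proteins that fill the dense-core granules in which endocrine cells store peptide hormones. The 5 granin genes Chga, Chgb, Scg2, Scg3 and Vgf were chosen by their symbols from the 55293 gene symbols of the deposited count table, and all 5 were present. Expression had been measured in single cells of dissociated mouse pituitaries of 3 genotypes named for Tpit, the transcription factor encoded by Tbx19 that drives the Pomc-expressing corticotrope and melanotrope lineages. The genotypes are TpitWT, TpitHT and TpitKO, written WT, HT and KO below, with 1 library each. The labels give the tissue and the genotype but not strain, age, sex, number of pooled mice, how the allele was made or what HT stands for. All 3 groups shared the same dissociation, a sort against propidium iodide that leaves out dead cells, and Chromium 3′ v3 chemistry, which reads the 3′ end of polyadenylated RNA.

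The libraries held 11222 WT, 12839 HT and 13413 KO cells, with means of 9561, 11869 and 9935 counts per cell. Counts had been deposited as sums over the cells of each genotype in each of 21 clusters. CPM is the count of a gene per 1000000 counts of the same group of cells. Tbx19 stood at 17.6, 12.4 and 0.690 CPM, and clusters 6 (corticotrope-like) and 7 (melanotrope-like) held no KO cells. Clusters were named by marker genes that did not include granins, and clusters 11, 12, 13 and 17 kept their numbers because no single list described them. Each genotype rests on a single library, so the spread between animals is unknown and no test was run. Bracketed ranges are exact 95% intervals for counting error alone, and they are too narrow because counts cluster within cells. Between 36 and 40 cell barcodes were shared by each pair of libraries.

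Granins aggregate in the acidic, calcium-rich lumen of the trans-Golgi network, and this aggregation helps to draw hormones into forming granules. Chromogranin A and B (Chga, Chgb) and secretogranin II (Scg2) are the classical members. Secretogranin III (Scg3) binds other granins and the cholesterol-rich granule membrane. Several granins, Vgf among them, are also cut by prohormone convertases into secreted peptides such as secretoneurin from Scg2 and the catestatin and vasostatin peptides from Chga. In the pituitary, gonadotropes are known for storing chromogranin A and secretogranin II beside luteinizing hormone.

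Transcription of several granins is known to respond to cAMP through a cAMP response element (CRE) near the start of the gene, so the element is shown here for the promoters found. RefSeq promoter entries (build GRCm38.p6) matched 4 of the 5 genes, the exception being Vgf. In the 250 bases before each start, the 8 letters TGACGTCA or, where that was absent, the shorter site TGACG on either strand were looked for. The full element contains the shorter site on both strands. The stretches below are 30 bases each, 5′ to 3′ on the gene's strand, with the match in capitals.
Chga: ggcggtcctaTGACGtaatttcctgggtgt
Chgb: ggctgctccgTGACGTCAgggctgagcgag
Scg2: gctgagccggTGACGTCAgcgtggaatgcg
Scg3: gctgggtcgcTGACGccatcctcacgcctc
They lie at chr12:102554887-102554916 (plus strand), chr2:132781560-132781589 (plus), chr1:79440075-79440104 (minus) and chr9:75684067-75684096 (minus), in that order. The full element began 72 bases before the start in Chgb and 68 bases before it in Scg2, and the shorter site 44 bases before it in Chga and 30 bases before it in Scg3. Over all 32851 promoter windows of this length, 1.55% held the full element and 17.8% the shorter site, so the shorter site alone is a common match. A match is a string of letters and no measurement of binding.

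The deposited gene models, identical to GENCODE M21 on GRCm38, are protein coding. Chga (ENSMUSG00000021194) spans chr12:102554969-102565028 on the plus strand, Chgb (ENSMUSG00000027350) chr2:132781278-132795079 on the plus strand, and Scg2 (ENSMUSG00000050711) chr1:79434669-79440120 on the minus strand. Scg3 (ENSMUSG00000032181) spans chr9:75643189-75684056 on the minus strand, and Vgf (ENSMUSG00000037428) chr5:137026392-137033351 on the plus strand. The printed stretches of Chgb and Scg2 lie inside these gene models, which begin upstream of the RefSeq start. Only Scg3 overlaps another gene model, Gm37871 on the opposite strand. Levels of different granins were not compared with each other.

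The first question was where in the pituitary each granin was expressed. Each had its own order of cell types, and the order rested on clusters that the authors had built from the same genes, so it is a description. Across the 14 clusters with at least 50 cells in every library that held them, the median level of the highest cluster over that of the lowest was 88.3 for Chga, 63.7 for Chgb, 64.0 for Scg2 and 19.03 for Scg3. Of the 13 pairs of neighbours in each order, the libraries' ranges overlapped in 6 pairs for Chga, 8 for Chgb, 8 for Scg2, 9 for Scg3 and 11 for Vgf. The top of the order was separated for Chga, Chgb and Scg2, and the overlaps lay mostly in the lower ranks.

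Chga was highest in gonadotrope-like cluster 3, where WT had 9777 CPM, HT 7998 and KO 8007. Cluster 13, whose leading genes include Tgfbr3l, Gata2 and Chga itself, followed at 4103, 5182 and 4337 CPM. Cluster 11, which carries markers of both gonadotropes and melanotropes, stood at 2961, 3161 and 2969 CPM. No library of these clusters overlapped the next in the order. Melanotrope-like cells had 1211 CPM in WT and 1836 in HT, and thyrotrope-like cells 896, 1289.5 and 1038 CPM. The lactotrope-like class (clusters 0 and 4) had 447, 477 and 460.2 CPM, and the somatotrope-like class (clusters 1, 2 and 5) 116, 101 and 112 CPM. Endothelial-like cells, which should lack granins and served as a gauge of free RNA, gave 274, 82.8 and 152 CPM. Somatotrope-like levels were above that gauge in CPM only in HT. Per cell, the somatotrope-like class had 1.35, 1.45 and 1.27 Chga counts. The 207, 281 and 552 endothelial-like cells held 205, 101 and 356 Chga counts in all, fewer per cell in each library. Depth per cell also differed between these classes, and the part of free RNA was not tested.

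Scg2 shared the top with Chga but not the rest of the order. Gonadotrope-like cells had 15918 (WT), 17118 (HT) and 12257 CPM (KO), and thyrotrope-like cells came second at 5674, 7194 and 8680.1 CPM. Clusters 13, 11 and 12 lay between 2259 and 3924 CPM, and their ranges overlapped from one to the next. Below them came lactotrope-like cluster 0 at 1455, 1502 and 1394 CPM, corticotrope-like cells at 1318 and 1559, lactotrope-like cluster 4 at 1396, 1442 and 1186, and melanotrope-like cells at 1001 and 1363. Neighbours in this order overlapped, while the first and the last of these 4 did not. Somatotrope-like cells had 217, 201 and 371 CPM against 419, 269.6 and 377 in endothelial-like cells.

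Chgb had a different leader. Thyrotrope-like cluster 14, the cells that make thyrotropin, had 25784, 28582 and 33801 CPM in the WT, HT and KO libraries. Cluster 12, a Prl-rich cluster, had 9189, 12831 and 11284 CPM, and lactotrope-like clusters 4 and 0 had 7245 to 8373 and 5802 to 6999 CPM. Red cell genes, hemoglobins among them, stood at 0, 1.90 and 2877 CPM in cluster 12, so those reads lay almost all in KO. Gonadotrope-like cells, first for Chga and Scg2, were sixth for Chgb at 2186, 2103 and 2595 CPM. Corticotrope-like and melanotrope-like cells had 985 and 977 CPM in WT, near the 1063 CPM of WT endothelial-like cells. Other WT classes without a hormone differed: fibroblast-like and lymphoid-like cells had 917 and 898 CPM, macrophage-like and stem-cell-like cells 471 and 448. In HT corticotrope-like and melanotrope-like cells had 1459 and 1368 CPM against an endothelial-like 531. Per WT cell, corticotrope-like and melanotrope-like cells had 7.26 and 8.19 Chgb counts, while 207 endothelial-like cells held 794 in all, fewer per cell. Mean depths in WT were 7376, 8380 and 3610 counts per cell, and the part of free RNA was not tested.

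**Figure D1:**
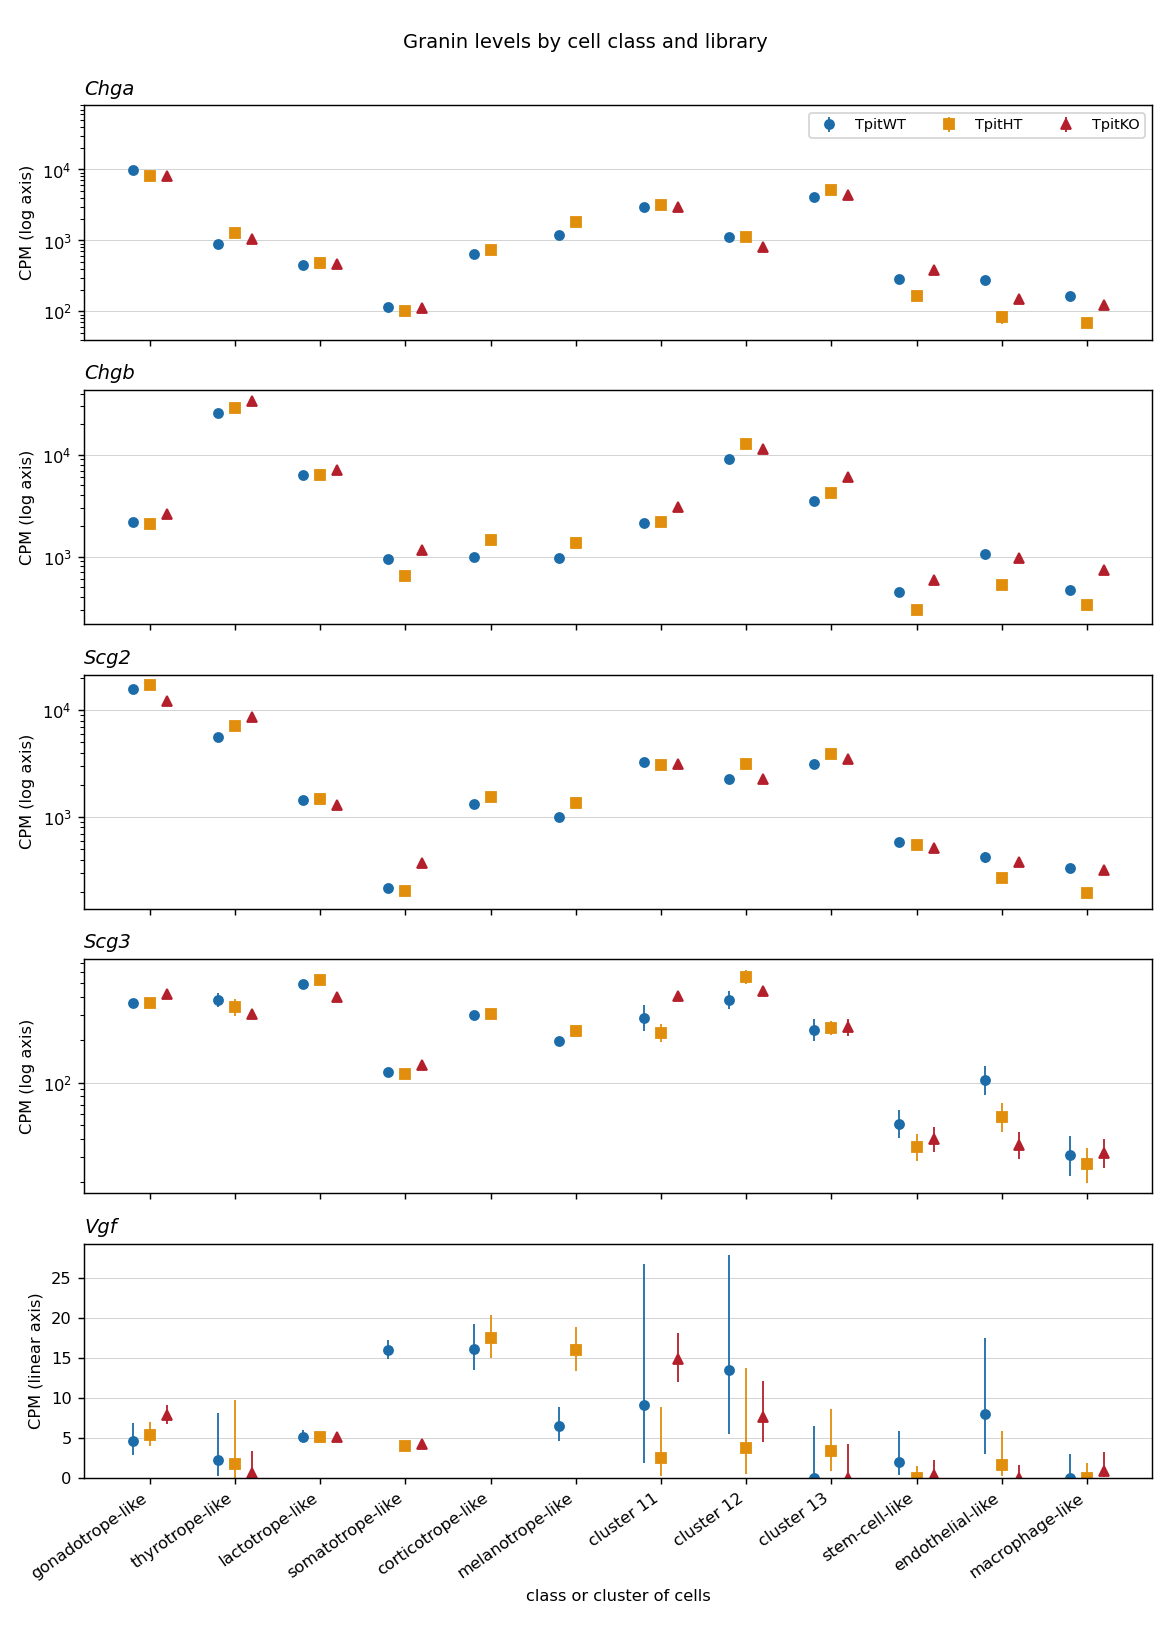
Level of each granin in CPM (vertical axis, logarithmic except for Vgf) in 12 classes or clusters of cells, with 1 point per library and exact 95% counting intervals as bars. Chga and Scg2 peak in gonadotrope-like cells and Chgb in thyrotrope-like cells, while Scg3 differs least among the endocrine classes.

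Scg3, the granin that links aggregates to the granule membrane, was the most even of the 5 among hormone-producing cells. Lactotrope-like cluster 0 had 540.4, 569 and 466 CPM, gonadotrope-like cells had 364, 362 and 421, and corticotrope-like cells had 300.3 and 304. Thyrotrope-like cells had 383, 339 and 305 CPM and melanotrope-like cells 197 and 231. The somatotrope-like class had 119, 116 and 134 CPM, in 59.8%, 64.0% and 64.6% of its cells, where endothelial-like cells gave 13.5%, 13.2% and 9.42%. Mean depths were 11670, 14345 and 11344 counts per somatotrope-like cell and 3610, 4343 and 4250 per endothelial-like cell. Macrophage-like cells were lower still, at 31.0, 26.5 and 31.9 CPM.

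Vgf was sparse. It stayed under 20 CPM in every cluster of at least 50 cells and was found in 5.76%, 4.40% and 3.47% of all WT, HT and KO cells. Corticotrope-like cells led the order of 14 clusters with 16.2 CPM in WT and 17.5 in HT. WT somatotrope-like cells were at a like level of 16.1 CPM, and their cluster 2, which is not in that order, had 16.9. Endothelial-like cells held 6, 2 and 0 Vgf counts. The 0 of 552 KO cells allows a share of up to 0.543%. In cluster 17 of the HT library, 39 counts lay in 4 of 48 cells, so that value of 100.5 CPM rested on a handful of cells.

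The counts of a whole library showed which classes supply its granin message. Gonadotrope-like cells were 4.001% of WT cells, yet they held 55.1% of the Chga counts and 46.6% of the Scg2 counts. In HT they were 4.91% of cells with 54.1% and 54.4%, and in KO 12.4% of cells with 75.4% and 67.3%. Lactotrope-like cells, 34.9%, 39.0% and 34.4% of WT, HT and KO cells, held 70.2%, 76.4% and 61.5% of Chgb counts. Of Scg3 counts they held 61.1%, 66.1% and 50.8%. Thyrotrope-like cells, 0.811% of WT and 1.17% of KO cells, held 6.74% and 9.76% of Chgb counts. For Vgf the leading class differed between libraries: somatotrope-like cells held 62.8% of its WT counts, but 23.4% in HT and 24.4% in KO. They were 33.4%, 29.8% and 27.3% of WT, HT and KO cells. Lactotrope-like cells led in HT and KO with 33.0% and 35.6% of Vgf counts, where they were 39.0% and 34.4% of cells.

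**Figure D2:**
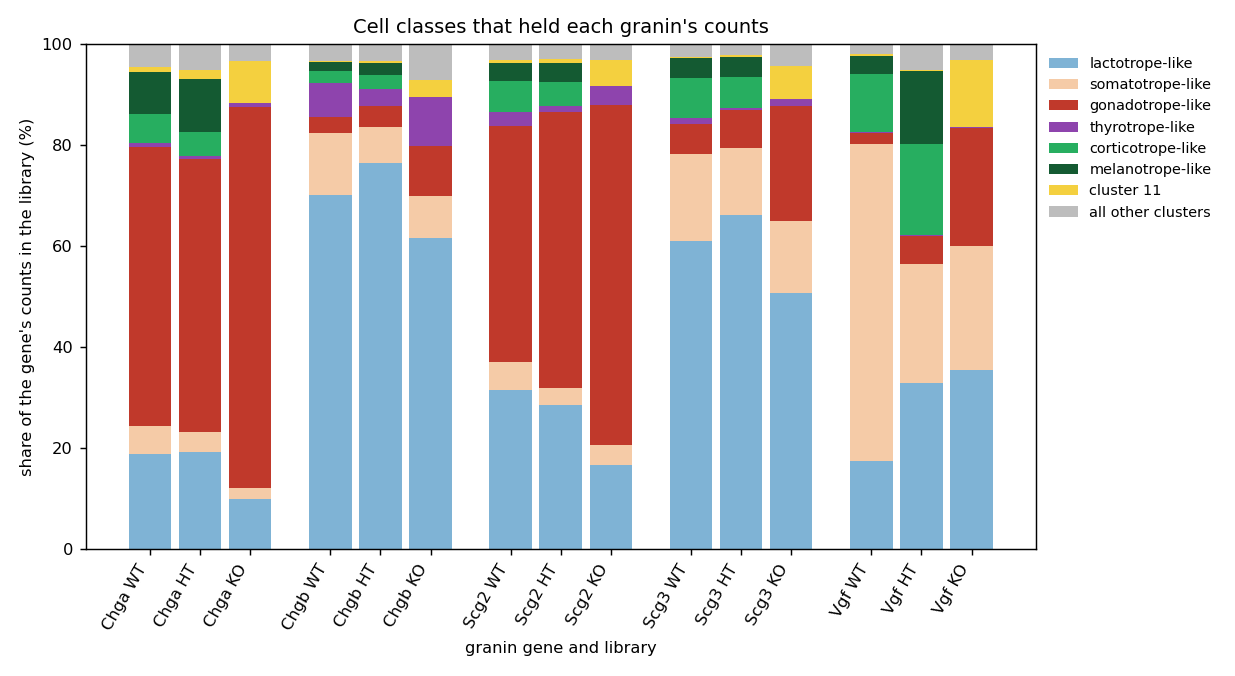
Share of each granin's counts (vertical axis, percent) that lay in each class of cells, with 1 bar per gene and library. Gonadotrope-like cells hold 75.4% of Chga counts in KO against 55.1% in WT, and somatotrope-like cells hold 62.8% of Vgf counts in WT against 24.4% in KO.

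The next question was how granin levels differed between KO and WT pituitaries. Over all cells Chga had 833 CPM (WT), 966 (HT) and 1703 (KO), a KO-to-WT ratio of 2.05 (2.03 to 2.06). Scg2 was at 1603, 2056 and 2920.1 CPM, a ratio of 1.82 (1.81 to 1.83). Chgb was at 3160.0, 3253 and 4294 CPM, a ratio of 1.36. Scg3 was nearly level at 283, 315 and 296 CPM, a ratio of 1.04 (1.03 to 1.06). A gene was counted as past the fold when the ratio reached 1.5 among genes with at least 50 counts in both libraries together and 20 CPM in one of them. Chga and Scg2 were past it, 2 of the 4 granins that met the filter, where 2.78% of 5645 genes were past it upward and 1.49% downward. Vgf did not meet the filter. Its 1117 WT, 931 HT and 714 KO counts gave 10.4, 6.11 and 5.36 CPM and a KO-to-WT ratio of 0.515 (0.468 to 0.566). Its direction turned when the endothelial-like level was taken off, from a log2 ratio of -0.96 to 1.17 for KO over WT and from -0.77 to 0.91 for HT over WT, and the WT endothelial-like level of 8.03 CPM rested on 6 counts.

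The higher Chga and Scg2 of the KO library were not found within gonadotrope-like cells, their main source. There, Chga was 0.819 of the WT level (0.811 to 0.827) and Scg2 0.770 (0.764 to 0.776), while Chgb was 1.19 and Scg3 1.16. None of the 4 was past the fold, where 1.95% of genes were higher and 4.30% lower. The HT library was like KO for Chga, at 0.818 of the WT level, but for Scg2 it stood at 1.08. KO and HT are both set against the same WT library in these values. In counts per cell, which do not depend on the share taken by hormone transcripts, gonadotrope-like cells had 110, 126 and 103 Chga counts and 178, 271 and 158 Scg2 counts. KO was lowest on both, and the mean depth of these cells was 11207, 15808 and 12862 counts.

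When each cluster was given its WT share of counts, over the 16 clusters with at least 20 cells in WT and KO, the KO-to-WT ratio was 0.887 for Chga, 0.888 for Scg2, 1.15 for Chgb, 0.932 for Scg3 and 0.628 for Vgf. On this scale Chga was 1163 CPM in WT and 1032 in KO. Over the same 16 clusters with each library's own shares, the ratio was 1.48 for Chga, 1.25 for Scg2, 0.924 for Chgb, 0.815 for Scg3 and 0.774 for Vgf. The 5 clusters left out were 2, 6, 7, 18 and 20. Cluster 2 held most WT somatotrope-like cells, at 105 CPM of Chga, while cluster 5, with most KO ones, stayed in. Leaving the 5 out moved WT from 833 to 1163 CPM for Chga and from 3160 to 4678 for Chgb. KO moved less, from 1703 to 1715 and from 4294 to 4321. Without those clusters neither Chga nor Scg2 was past the fold and Chgb was lower in KO. Leaving out clusters 3, 6 and 7 instead gave ratios of 1.59 for Chga and 1.33 for Scg2, with the other clusters still in each library's own proportions. The Chga ratio thus went from 2.05 to 1.48 when those clusters were dropped and to 0.887 when the shares were also fixed, and the Scg2 ratio from 1.82 to 1.25 and 0.888. These alternatives were chosen after the data had been seen, and the larger share of gonadotrope-like cells was measured in 1 KO library.

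**Figure D3:**
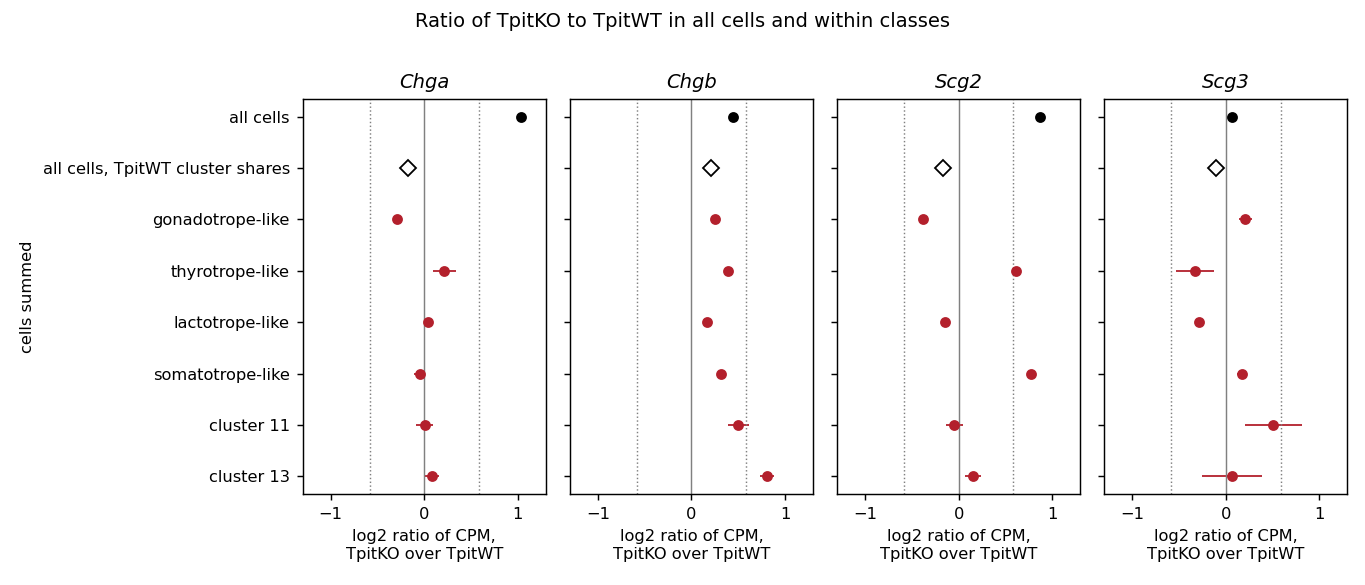
Log2 ratio of CPM, KO over WT (horizontal axis), for 4 granins in all cells, in all cells with each cluster held at its WT share of counts (open diamonds, over 16 clusters), and within classes and clusters. Bars are exact 95% counting intervals and dotted lines mark 1.5-fold. Chga and Scg2 lie above 0 in all cells and below 0 with WT cluster shares.

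In lactotrope-like cells, the prolactin-producing cells, granins differed little between KO and WT. Chga was at 1.03 of the WT level, Chgb at 1.12, Scg2 at 0.907 and Scg3 at 0.818 (0.802 to 0.834), and Vgf at 5.18, 5.14 and 5.12 CPM. None was past the fold, where 0.468% of genes were higher and 3.45% lower. Prl itself was at 215984 CPM in WT cells of the class and 302856 in KO cells. Taking hormone and mitochondrial genes out of the totals raised every log2 ratio of this class by 0.16. The 2 clusters of the class differed for Chgb, with ratios of 1.21 in cluster 0 and 0.865 in cluster 4, and 31.7% of KO cells of the class lay in cluster 4 against 15.1% in WT.

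Somatotrope-like cells, the growth hormone cells, had higher Scg2 in KO. Scg2 had 217 CPM (WT), 201 (HT) and 371 (KO), a KO-to-WT ratio of 1.71 (1.67 to 1.75), with WT and HT close together and KO apart. In counts per cell it was 2.53, 2.89 and 4.21, and in share of cells 77.4%, 81.0% and 92.1%. It was 1 of 4 granins past the fold, where 8.74% of genes were higher and 2.55% lower. In cluster 1, the somatotrope-like cluster with many cells in each library, the ratio was 1.75 (1.67 to 1.83). WT cells of the class lay mostly in cluster 2 and KO cells mostly in cluster 5.

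Endothelial-like cells gave 1.51, 1.17 and 1.60 Scg2 counts per cell in WT, HT and KO, in 46.4%, 55.9% and 65.8% of cells. The gonadotrope and thyrotrope hormone subunit Cga, which somatotropes should not make, was at 7.40, 9.09 and 15.9 counts per somatotrope-like cell and at 6.97, 7.72 and 14.9 per endothelial-like cell. Cga per cell was thus nearly the same in both classes, while Scg2 per somatotrope-like cell was 1.68 times the endothelial-like value in WT, 2.47 times in HT and 2.63 times in KO. On this gauge HT lay near KO. Prl per cell did not match between the classes as Cga did. It was at 54.3, 46.3 and 75.8 counts per somatotrope-like cell in WT, HT and KO. Per endothelial-like cell it was at 137, 42.2 and 102.5, so the gauge itself differed between libraries. Mean depth was 11670, 14345 and 11344 counts per somatotrope-like cell and 3610, 4343 and 4250 per endothelial-like cell. The part of free RNA in the Scg2 difference was not tested. Taking hormone and mitochondrial genes out of the totals lowered every log2 ratio of this class by 0.23, which brings Scg2 to 1.46-fold, below the fold used.

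Chgb in somatotrope-like cells was at 938, 645 and 1169 CPM, so HT was lowest and KO highest. KO was 1.81 times HT (1.79 to 1.84) and 1.25 times WT, and HT was 0.688 of WT. Endothelial-like Chgb was also lowest in HT, at 1063, 531 and 974 CPM. Chga in somatotrope-like cells was level between WT and KO, at a ratio of 0.967 (0.929 to 1.01), and Scg3 was at 1.13.

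Vgf in somatotrope-like cells set the WT library apart from both others. It had 702 counts in 3744 WT cells, 218 in 3831 HT cells and 174 in 3662 KO cells, at 16.1, 3.97 and 4.19 CPM. The KO-to-WT ratio was 0.261 (0.220 to 0.308), HT over WT was 0.247 (0.211 to 0.288) and KO over HT was 1.06 (0.860 to 1.29). The share of cells with a Vgf count was 10.4%, 3.81% and 3.30%, with 1.45%, 0.712% and 0% among endothelial-like cells. The difference was present in both somatotrope-like clusters that WT and HT share: cluster 1 had 14.5, 4.51 and 4.21 CPM, and cluster 2 had 16.9 in WT and 3.72 in HT. Lactotrope-like cluster 4 was also highest in WT, at 13.1, 7.98 and 7.14 CPM, but lactotrope-like cluster 0 was not, at 3.14, 4.63 and 3.74 CPM. The low level kept Vgf under the filter in every class, so no background share applies to it, and 1 WT library stands behind the high values.

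**Figure D4:**
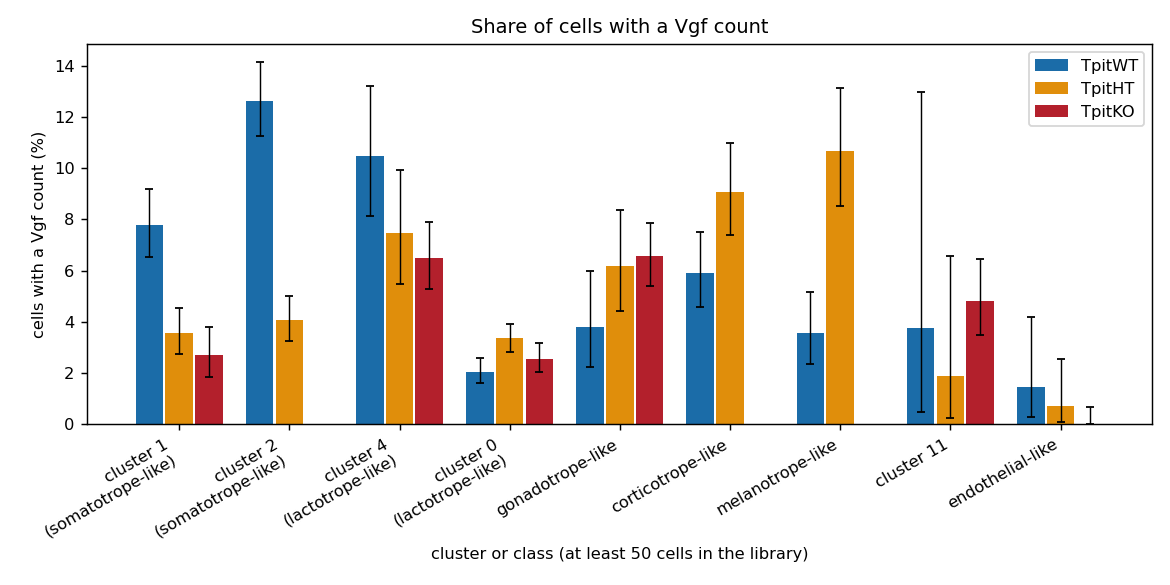
Share of cells with a Vgf count (vertical axis, percent) by cluster or class and library, with exact 95% intervals as bars, for groups of at least 50 cells. WT is highest in somatotrope-like clusters 1 and 2 and in lactotrope-like cluster 4, and HT is above WT in melanotrope-like cells.

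Thyrotrope-like cells had higher Scg2 and Chgb in KO. Scg2 had 5674 CPM (WT), 7194 (HT) and 8680.1 (KO), a KO-to-WT ratio of 1.53 (1.48 to 1.58), and Chgb was at a ratio of 1.31 (1.29 to 1.33). Chga was at 1.16 (1.06 to 1.26) and Scg3 at 0.797 (0.693 to 0.918). One granin, Scg2, was past the fold, where 6.32% of genes were higher and 10.1% lower. The class held 91 WT, 52 HT and 157 KO cells, and Scg2 was counted in 100% of cells in each library.

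Cluster 11 held 53 WT, 107 HT and 871 KO cells. Its Chga and Scg2 levels hardly differed between the libraries, with KO-to-WT ratios of 1.00 (0.940 to 1.07) and 0.969 (0.911 to 1.03). Chgb was at 2158, 2177 and 3057 CPM, a ratio of 1.42 (1.31 to 1.53), and Scg3 at 287, 225 and 406 CPM, a ratio of 1.41 (1.15 to 1.76). None was past the fold, where 16.8% of genes were higher and 16.1% lower. In KO this cluster held 8.29% of Chga counts. Pomc in cluster 11 was at 19954, 33462 and 196 CPM in WT, HT and KO, so its cells were not alike in the libraries. Cluster 13 had Chgb at 3502, 4258 and 6112 CPM, a KO-to-WT ratio of 1.75 (1.66 to 1.84) past the fold, where 6.92% of genes were higher. The other 3 granins of cluster 13 that met the filter lay between 1.05 and 1.11.

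The last comparison set HT against WT in the Pomc-expressing classes, which KO lacks. In melanotrope-like cells each granin was higher in HT. Chga was at 1211 CPM in WT and 1836 in HT, a ratio of 1.52 (1.47 to 1.56), and Chgb was at 977 and 1368 CPM, a ratio of 1.40 (1.36 to 1.44). Scg2 was at a ratio of 1.36 (1.32 to 1.40) and Scg3 at 1.17 (1.09 to 1.26). Chga alone was past the fold, where 1.89% of genes were higher and 4.10% lower. Vgf had 40 counts in 730 WT cells and 134 in 732 HT cells, a ratio of 2.44 (1.71 to 3.57), and was counted in 3.56% and 10.7% of cells. Prl, which these cells should not make, went the other way, from 11574 to 3560.5 CPM, and mean depth was 8380 and 11452 counts per cell. The part of either in the granin difference was not tested.

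Corticotrope-like cells also had higher Chgb in HT, but not higher Scg3. Chgb was at 985 CPM in WT and 1459 in HT, a ratio of 1.48 (1.44 to 1.52), Scg2 at 1.18 and Chga at 1.16. Scg3 was level at 1.01 (0.960 to 1.07) and Vgf at 1.08 (0.855 to 1.37). None was past the fold, where 1.92% of genes were higher and 4.59% lower. Their mean depth was 7376 and 9256 counts per cell. In endothelial-like cells the HT library was lower than WT for Chga (0.302), Chgb (0.4997), Scg2 (0.644) and Scg3 (0.549), all 4 past the fold downward where 6.96% of genes were. Endothelial-like Prl was lower too, at 137 counts per cell in WT and 42.2 in HT, and the part of free RNA in these values was not tested.

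The other genes of the granule were then counted from fixed lists. Granin-like Scg5, a chaperone of the convertase Pcsk2, and Pcsk1n, an inhibitor of the convertase Pcsk1, with the extracellular chaperone Clu, made a list of 3. The shares over all genes given above for each class apply to these counts too. Over all cells (2.78% higher, 1.49% lower) none of these 3 was past the fold in KO over WT, and the median log2 ratio was -0.03 against 0.05 over all genes. Of 10 genes of prohormone processing 7 met the filter, with Qpct, which forms N-terminal pyroglutamate, higher (0.74) and Pcsk2 lower (-0.65). Pcsk2 was among the leading genes of melanotrope-like cluster 7, which held no KO cells, so its value over all cells includes the absence of that cluster. None of 13 granule membrane and biogenesis genes and none of 14 exocytosis genes was past the fold. Of 8 regulators that met the filter only Insm1, a neuroendocrine transcription factor, was, at 0.64.

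Within classes the same lists moved in different genes. In somatotrope-like cells, where Scg2 was higher in KO, 2 of 12 exocytosis genes were past the fold upward, Cplx2, which encodes a complexin that binds the fusion complex (18.8, 27.9 and 49.1 CPM in WT, HT and KO), and Sytl4, which encodes granuphilin (70.8, 105 and 149 CPM). Over all genes of the class 8.74% were higher. The list's median log2 ratio was 0.39 against 0.21 for all genes of the class. Pcsk1n (0.85), the amidating enzyme gene Pam (0.70), Creb1 (0.95) and Insm1 (0.88) were past it too. Totals free of hormone and mitochondrial genes, which lower each of these by 0.23, leave Pam below the fold. In lactotrope-like cells Sytl4 was lower, at 27.1, 31.2 and 12.2 CPM, and so was Cyb561, a granule membrane cytochrome (-0.76).

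In gonadotrope-like cells 1 of 17 exocytosis genes was higher, the calcium sensor Syt1 (0.98), and 4 were lower, Cadps2 (-0.70), Unc13a (-0.65) and Rab3a (-0.64) among them. Over all genes of the class 1.95% were higher and 4.30% lower. The list's median was 0.07 against -0.05 for all genes. Among the regulators reported here, Neurod1, a neuroendocrine transcription factor, was past the fold (0.64). In thyrotrope-like cells Cplx2 was again higher (1.09), with 24 WT and 95 KO counts, and Qpct (-1.03) and Syt7 (-0.90) were lower. In cluster 11, where 16.8% of all genes were higher and WT had 53 cells, 5 of 7 processing genes were higher in KO, Pcsk2 the most, at 39.7 CPM from 13 WT counts and 336 CPM in KO. Cpd (0.98), Pam (0.87) and Pcsk1 (0.73) followed. Pomc in the same cluster was at 19954 CPM in WT and 196 in KO, and whether the same kind of cell was compared was not tested.

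For HT over WT, the melanotrope-like class had Qpct (1.23), Syt4 (0.59) and Crem (1.20) past the fold among 46 list genes other than hormones that met the filter, where 1.89% of all genes were higher. The hormone genes Prl (-1.70), Tshb (-0.86) and Gh (-0.66) were lower, where 4.10% of all genes were. Crem encodes cAMP-responsive regulators that bind the element shown above, and its level was 66.4 CPM in WT and 152 in HT. A link between Crem and the granin levels was not tested. In corticotrope-like cells Crem was at 126 and 207 CPM (0.72). Pcsk1, the convertase that cuts proopiomelanocortin to ACTH, was at 126 and 196 CPM there (0.64). Somatotrope-like Crem was lower in HT, at 37.7, 24.0 and 36.8 CPM in WT, HT and KO (-0.65 for HT over WT). It was the 1 of 5 regulators past the fold in that class, where 0.431% of genes were higher and 1.04% lower.

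Likeness was measured as Pearson's r of log2(CPM + 1) over 47 sums of genotype and cluster with at least 50 cells, among 11747 genes. The points share libraries, depth and clusters, so the values describe these sums and carry no p. Among the granins, Chga and Scg2 were most alike (r = 0.927), followed by Chgb and Scg3 (0.803), while Chga and Chgb were further apart (0.555). Vgf was least like the others, at 0.231 to 0.551. Scg5 was among the 5 most similar genes other than granins of Chgb (0.868), Scg2 (0.862) and Scg3 (0.963). Leaving the other granins out of the candidates, the closest gene was Tmem179 for Chga (0.903), Rab3c for Chgb (0.879), Marchf11 for Scg2 (0.916), Sez6l2 for Scg3 (0.965) and Dusp26 for Vgf (0.709). The voltage-gated sodium channel gene Scn3a stood second on the same ranking for both Chga (0.893) and Scg2 (0.892), and the granule membrane genes Hid1 (0.689) and Ptprn (0.665) were among the 5 of Vgf. These rankings depended on the measure and the library. With Spearman's rho the 5 most similar genes changed for 4 of the 5 granins, and Scg5 (0.892) was closer to Chgb than Rab3c (0.867). Within WT, HT and KO alone they changed for 5, 3 and 4 granins. The Vgf values rest on sums under 20 CPM.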

How the data were processed

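The authors deposited a table of counts, whole numbers added up over all cells in each of 61 pairs of genotype and cluster. A second deposited table held the same sums as signal, scaled by 1 constant factor in each of the 61 columns. Recorded under the unit other, the deposited files also gave the number of cells with a count and each barcode's cluster. Per the submitters' processing notes, Cell Ranger 5, Seurat 3.1 and DESeq2 were used, with builds mm10 and GRCm38. The file headers do not say whether counts are molecules. A further 305 columns of per-sample values were not used. Rows with the same symbol were added (55403 rows, 55293 symbols).

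Counts were summed per class and genotype with Python 3.11.15, numpy 2.4.6, pandas 2.3.3 and scipy 1.17.1, and drawn with matplotlib 3.10.9. Classes needed 50 cells in both libraries. Intervals were exact Poisson, Clopper-Pearson or conditional binomial at 95%. A count of 0 was given the limit of 3 counts. The counting was tested on simulated data.

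One gene of the regulator list is not reported here. The members, marker lists and gene lists were chosen with earlier results of these data known. The 5 granins are named throughout, and of each list the up to 4 genes of largest log2 ratio. A cluster took a name where at least 3 markers of a list were detected and that list led. Clusters 11, 12, 13 and 17 met this too but kept their numbers, a choice made after their values were seen: in 11 and 13 a second list scored nearly as high, 12 was led by red cell genes together with Prl, and no gene of the leading list was among the top 10 of 17. Alternatives were totals without hormone and mitochondrial genes, the authors' scaled counts, counts per cell, shares of cells, equal cluster weights, the endothelial-like level taken off, other folds and filters, fixed cluster shares, and own shares over the same 16 clusters. No step was taken against doublets, and cells were not thinned to equal depth, since counts of single cells were not used here.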

Additional observations from a re-analysis of the deposited data

Results flagged for a closer look

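Scg2 differed in direction between classes under the same KO over WT contrast. The ratio was 1.71 in somatotrope-like cells, 1.53 in thyrotrope-like cells and 0.606 in fibroblast-like cells, against 0.770 in gonadotrope-like cells. The fibroblast-like value rested on 139 WT and 200 KO counts in 57 and 144 cells. Fibroblast-like Scg2 was at 483 and 293 CPM in WT and KO, against 419 and 377 in endothelial-like cells, the gauge of free RNA. Prl was at 168 and 66.9 counts per fibroblast-like cell in WT and KO. The part of free RNA in the fibroblast-like value was not tested. The difference between classes was not tested.

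Vgf also differed in direction. Its ratio was 0.261 in somatotrope-like cells, 1.72 (1.11 to 2.79) in gonadotrope-like cells and 1.62 (0.537 to 7.99) in cluster 11. The last value rested on 3 WT and 94 KO counts, and its interval included 1. The difference was not tested, and with 1 library per genotype no test of it can be made.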

How the results depend on the processing

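Each genotype had 1 library, so no leaving out of libraries could be run. No paired analysis was possible because no group had 2 replicates. Over all cells of KO and WT, 2 of 4 granins were past the fold upward and 0 downward. Upward this became 0 with the authors' scaled counts, with shares of cells and with clusters weighted equally, and 1 with a fold of 2. Downward it became 1 of 5 without the filter, the 1 being Vgf. Over the 16 pairs of granin and hormone class 2 were higher and 0 lower. Higher pairs numbered 1 with totals free of hormone and mitochondrial genes, with scaled counts, with equal weights and with classes of at least 100 cells, and 0 with shares of cells and with a fold of 2. Without the filter 2 of 20 were lower, both of them Vgf. The ratio was 0.261 in somatotrope-like cells and 0.268 in thyrotrope-like cells, the latter from 1 KO and 2 WT counts. Vgf in gonadotrope-like cells, at 1.72, was then past the fold upward as well. For HT over WT, 0 of 4 were past the fold over all cells and 1 of 24 pairs was higher. Over all cells 1 was higher in counts per cell, 2 with the endothelial-like level taken off, and 1 lower without the filter. Pairs higher numbered 7 in counts per cell, 7 with that level taken off, 2 with hormone-free totals, 2 without the filter, where 1 was lower, and 0 with shares of cells or a fold of 2.

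The log2 ratio of Chga over all cells, KO over WT, went from 1.03 to -0.12 with scaled counts, -0.15 with equal weights and -0.17 with WT cluster shares, and that of Scg2 from 0.87 to -0.057 with equal weights and -0.17 with WT cluster shares. These alternatives weight the clusters differently, and the last also leaves out 5 clusters, among them cluster 2 with most WT somatotrope-like cells. Over the same 16 clusters with own shares the log2 ratios were 0.56 for Chga, 0.32 for Scg2 and -0.11 for Chgb. Vgf over all cells turned to 0.55 for HT over WT with equal weights, to 0.91 with the endothelial-like level taken off, and to 1.17 for KO over WT with that level taken off. Its somatotrope-like log2 ratio was 0.078 for KO over HT, where it was -1.94 for KO over WT. The cause was not tested. Somatotrope-like Scg2, at 1.71-fold, was 1.46-fold with hormone-free totals, 1.43-fold with scaled counts and 1.35-fold with equal weights. Depth limits Vgf most, since it had 714 to 1117 counts in a library.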
